A study of Mus musculus with 6 samples.

Results

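Stefins and cystatins are inhibitors of papain-like cysteine proteases. They were followed here in the tongues of Aim2 knockout and wild type mice through 7 genes, Stfa1, Stfa2, Stfa3, Stfa2l1, Cstb, Cst3 and Cst6. These are 7 of the 35275 genes in the expression table, taken by name, in a choice made with earlier results of these data known. Stefins (type 1 cystatins) are small, single-domain proteins without a signal peptide that stay mainly inside the cell, whereas the type 2 cystatins C and M/E are secreted. Both kinds enter the active-site cleft of cathepsins with a wedge that includes a glutamine-x-valine-x-glycine loop, and cystatins C and M/E also block legumain, an asparaginyl endopeptidase, through a separate site. In stratified epithelia, stefin A is a constituent of the cornified envelope and cystatin M/E limits proteolysis during cornification. In the mouse, the stefin A gene is multiplied into a cluster on chromosome 16, and several of its copies are also known from neutrophils.

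Bulk RNA was sequenced in 3 Aim2 KO tongue libraries and 3 WT tongue libraries, numbered as replicates 1 to 3 in each genotype. Both genotypes had received 4NQO (4-nitroquinoline 1-oxide, a DNA-damaging carcinogen that produces squamous lesions of the mouth) in drinking water at 100 µg/ml for 20 weeks, so no untreated tongue enters the comparison. The Aim2 protein senses DNA in the cytosol and nucleates an inflammasome, and the study concerns its part in squamous carcinoma of the head and neck. The labels give neither strain, age, sex nor batch, and they give the knockout only as Aim2-/-, naming no allele, promoter or Cre. Whether the 3 libraries of a genotype are 3 mice is not said either, so the p-values speak of the spread between libraries, which may be technical. All names of Aim2 KO libraries begin alike, and so do all names of WT libraries, so a cage, litter or batch that this might stand for cannot be told apart from the genotype in any comparison.

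The libraries held 21959204 to 24994421 reads in Aim2 KO and 24273320 to 25369400 reads in WT. Values are FPKM, reads scaled to gene length and to the reads of the library. Aim2 itself had 3, 4 and 10 reads in the Aim2 KO libraries, against 14, 25 and 30 reads in the WT libraries, and these groups did not overlap. The tissue label was checked against markers, and all 12 suprabasal keratinocyte genes and all 12 skeletal muscle genes of the lists used were expressed, as in a tongue with its epithelium. Summed suprabasal markers were 27197 to 28708 FPKM in Aim2 KO and 27510 to 31508 FPKM in WT. Summed muscle markers were 7585 to 14961 FPKM in Aim2 KO, with the lowest sum in replicate 1, and 12802 to 15120 FPKM in WT.

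No member differed between Aim2 KO and WT beyond the spread of the libraries. With limma on log2(FPKM + 1), 0 of the 6 members that passed a filter of a mean of at least 1 FPKM were called at an adjusted p of 0.05, and 0 of the 6 had an unadjusted p under 0.05. None was called on leaving out any 1 library or with voom on the recovered reads, while Cstb was called with the level of suprabasal keratinocyte markers as a covariate (log2 difference 0.68, limma adjusted p = 0.0374), an alternative chosen after seeing the data. Across all 12144 genes tested, 0.00823% were called and 2.5% had an unadjusted p under 0.05. For each of the 7 members the Aim2 KO and WT values overlapped; across all genes tested, 4.98% had every Aim2 KO value above every WT value and 1.48% had every one below. Among the 6 members, 3 log2 differences were positive and 3 were negative, with a median of -0.0099 against 0.02 over all genes tested. Besides their levels, the members differed in how much they varied between libraries. Stfa2 ranged 7.18-fold over the 6 libraries, and Cst3 ranged 1.19-fold.

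The coding sequence around the inhibitory loop is shown first, since it separates the members whose levels are compared. Each line gives 15 codons of the longest annotated coding sequence (GENCODE M21, GRCm38), with the 5 codons of the glutamine-x-valine-x-glycine loop in capitals. The pattern occurred 1 time in the coding sequence of every member.
Stfa1: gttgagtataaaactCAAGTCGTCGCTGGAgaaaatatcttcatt
Stfa2: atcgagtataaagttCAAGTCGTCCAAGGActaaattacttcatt
Stfa2l1: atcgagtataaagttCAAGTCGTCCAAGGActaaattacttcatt
Stfa3: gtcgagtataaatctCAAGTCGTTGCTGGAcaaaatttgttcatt
Cstb: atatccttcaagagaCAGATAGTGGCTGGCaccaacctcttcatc
Cst3: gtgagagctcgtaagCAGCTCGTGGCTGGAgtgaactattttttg
Cst6: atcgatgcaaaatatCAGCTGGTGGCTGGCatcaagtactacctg

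The windows of Stfa2 and Stfa2l1 were identical over all 45 bases, and the loop they encode was found in no other of the 13 members and stefin A relatives that have a coding sequence. Stfa1 and Stfa3 encode the same loop as each other, one shared by 5 of the 13 genes, and their windows agreed at 39 of 45 bases. Stfa2 and Stfa3 agreed at 35 of 45 bases. Cst3 and Cst6 encode the same loop but spell it with different codons, and agreed at 25 of 45 bases. Over the whole coding sequence Stfa2 and Stfa2l1 were 96.5% identical, Stfa2 and Stfa3 81.1%, and Cst3 and Cst6 53.0%. The longest annotated model of Stfa1 has 128 codons, against 103 in the other 3 stefin A members, which lowers its identity to them.

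**Figure D1:**
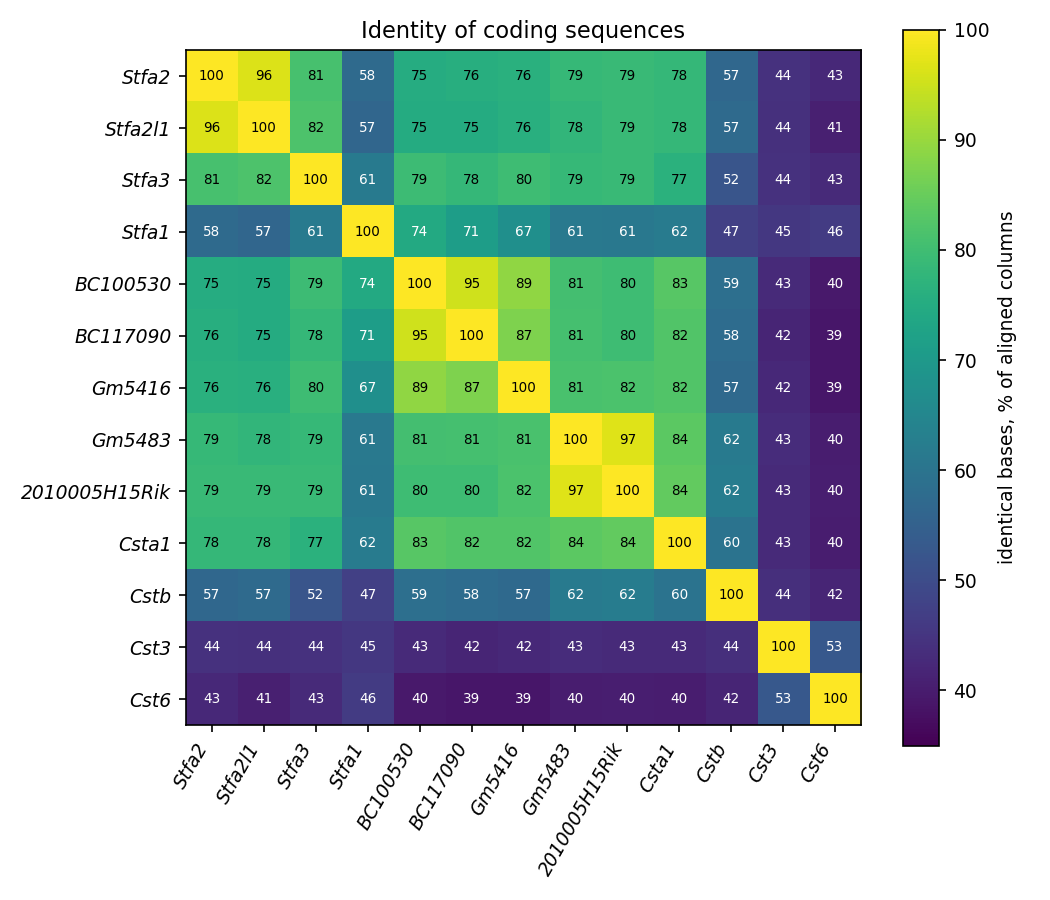
Identity of coding sequences between the 7 members and 6 stefin A relatives, as the percentage of identical bases in a global alignment of the longest annotated coding sequences. Stfa2 and Stfa2l1 form the closest pair of members (96.5%), Cstb lies at 47.3% to 57.4% from the 4 stefin A members, and Cst3 and Cst6 are closer to each other (53.0%) than either is to any stefin.

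This likeness bears on the counts, because a read that matches more than 1 copy can be assigned to the wrong copy or dropped, and no source used here says how such reads were handled. Of the 50-base stretches in its annotated transcripts, Stfa2 shares 15.9% with other genes, Stfa2l1 24.6% and Stfa1 22.5%, and the partners are Stfa2l1, Gm4758 and Gm49652 for Stfa2 and BC100530 and BC117090 for Stfa1. Stfa3, Cstb, Cst3 and Cst6 share none. At 100 bases the shared part is 0% for Stfa2 and Stfa2l1 and 5.07% for Stfa1. Values of Stfa1, Stfa2 and Stfa2l1 are therefore uncertain. The shares count identical stretches only, so they do not measure how far the values may be off.

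The 4 stefin A members lie within a single stretch of chromosome 16 (GRCm38). Stfa2l1 (ENSMUSG00000059657) is at chr16:36156811-36161948 on the plus strand, Stfa1 (ENSMUSG00000071562) at chr16:36277148-36285371 on the plus strand, Stfa2 (ENSMUSG00000022902) at chr16:36403946-36408363 on the minus strand and Stfa3 (ENSMUSG00000054905) at chr16:36450537-36455392 on the minus strand. The other members stand apart from the cluster and from each other. Cstb (ENSMUSG00000005054) is at chr10:78425670-78427619 on the plus strand, Cst3 (ENSMUSG00000027447) at chr2:148871722-148875692 on the minus strand and Cst6 (ENSMUSG00000024846) at chr19:5344705-5349574 on the minus strand.

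The 4 stefin A promoters are close copies too, and they are shown because these neighbouring genes did not vary to the same degree. Each line is the 250 bases before the start of the gene (RefSeq, GRCm38.p6), read in the direction of the gene, with capitals for runs of 10 bases or more that all 4 promoters hold. The windows are chr16:36276898-36277147 for Stfa1, chr16:36408364-36408613 for Stfa2, chr16:36455393-36455642 for Stfa3 and chr16:36156561-36156810 for Stfa2l1.
Stfa1: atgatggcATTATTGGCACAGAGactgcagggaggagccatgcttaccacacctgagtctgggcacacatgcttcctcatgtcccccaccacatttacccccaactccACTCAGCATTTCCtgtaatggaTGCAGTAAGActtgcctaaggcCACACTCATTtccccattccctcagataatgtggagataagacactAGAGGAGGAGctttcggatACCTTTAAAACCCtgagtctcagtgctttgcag
Stfa2: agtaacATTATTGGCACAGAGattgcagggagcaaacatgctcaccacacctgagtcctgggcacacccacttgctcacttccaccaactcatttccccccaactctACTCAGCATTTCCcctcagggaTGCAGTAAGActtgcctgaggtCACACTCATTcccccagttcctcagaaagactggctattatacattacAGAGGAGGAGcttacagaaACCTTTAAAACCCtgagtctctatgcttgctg
Stfa3: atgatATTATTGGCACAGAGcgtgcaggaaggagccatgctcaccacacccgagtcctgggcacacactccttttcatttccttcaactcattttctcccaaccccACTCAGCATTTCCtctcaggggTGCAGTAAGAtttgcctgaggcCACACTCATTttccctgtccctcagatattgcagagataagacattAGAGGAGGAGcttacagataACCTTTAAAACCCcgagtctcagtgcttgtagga
Stfa2l1: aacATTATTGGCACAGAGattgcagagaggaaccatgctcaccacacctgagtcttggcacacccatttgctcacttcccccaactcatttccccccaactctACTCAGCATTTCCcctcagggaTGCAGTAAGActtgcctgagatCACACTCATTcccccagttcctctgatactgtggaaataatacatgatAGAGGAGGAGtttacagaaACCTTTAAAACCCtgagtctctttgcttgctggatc

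The shared runs cover 71 bases of each promoter and the longest is 15 bases. Stfa2 and Stfa2l1 were 89.4% identical over the aligned promoters, and the other pairs among these 4 were 80.2% to 83.1% identical, whereas Cst3, the other member whose promoter is in the table, was 39.5% to 43.9% identical to them. The letters TTTAAAA, chosen after the sequences were seen and searched on both strands, begin 29 to 33 bases before the start in all 4. They occur in 8.10% of 32851 mouse promoters of the same length. TATAAA (12.4% of promoters) and TGANTCA, the letters bound by AP-1 (6.75% of promoters), were in none of the 4 windows on either strand, so no motif overlaps another here.

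Stfa2, a stefin A copy, was the most variable member. It was at 20.9, 8.04 and 2.91 FPKM in Aim2 KO replicates 1 to 3, against 15.0, 7.21 and 9.50 FPKM in WT replicates 1 to 3. The highest and the lowest of the 6 libraries were both Aim2 KO, and all 3 WT values lay between them. The means were 10.6 ± 9.25 FPKM in Aim2 KO and 10.6 ± 4.01 FPKM in WT (SD, n = 3 each), and the log2 difference was -0.28 (SE 0.57, 95% interval -1.59 to 1.04; limma adjusted p = 0.9998). Counting error does not span this range, since the highest library had 199 reads (exact Poisson 95% interval 172 to 229) and the lowest had 27 reads (17.8 to 39.3). The difference turned on single libraries and on the model. It was 0.34 without Aim2 KO replicate 3, -0.91 without Aim2 KO replicate 1 and -0.02 without WT replicate 1, and it was -1.30 with array quality weights (each library weighted by how closely it follows the model), -0.64 with a muscle marker covariate and 0.92 with the suprabasal covariate, none of them called.

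Stfa3, its close neighbour in the cluster, stayed nearer to its mean. It was at 10.6, 6.31 and 7.96 FPKM in Aim2 KO, against 11.8, 7.70 and 6.89 FPKM in WT. The 2 groups covered nearly the same range. The log2 difference was -0.07 (SE 0.23, 95% interval -0.59 to 0.45; limma adjusted p = 0.9998), with means of 8.27 ± 2.14 FPKM in Aim2 KO and 8.78 ± 2.60 FPKM in WT (SD, n = 3 each). Without Aim2 KO replicate 2 the difference was 0.09, and without WT replicate 1 it was 0.14. Within a library, Stfa2 was at 1.98, 1.27 and 0.365 times the FPKM of Stfa3 in Aim2 KO, and at 1.28, 0.936 and 1.38 times in WT, so the 2 genes changed places between libraries.

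Stfa1, a further stefin A copy, was expressed at a lower level. It was at 2.55, 1.15 and 1.42 FPKM in Aim2 KO, against 3.21, 1.68 and 2.92 FPKM in WT. Of the Aim2 KO values, 2 lay below every WT value and the third did not. The means were 1.70 ± 0.743 FPKM in Aim2 KO and 2.60 ± 0.816 FPKM in WT (SD, n = 3 each), and the log2 difference was -0.42 (SE 0.24, 95% interval -0.99 to 0.15; unadjusted p = 0.124, limma adjusted p = 0.9998). These values rest on 24, 12 and 13 reads in Aim2 KO and on 33, 17 and 31 reads in WT.

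Stfa2l1, the near-duplicate of Stfa2, was barely detected and fell under the filter. It had 1, 3 and 0 reads in Aim2 KO, against 9, 1 and 3 reads in WT, which is 0.107, 0.290 and 0 FPKM in Aim2 KO and 0.884, 0.0995 and 0.286 FPKM in WT. The 0 reads of Aim2 KO replicate 3 allow a level of up to 0.330 FPKM. In a fit without the filter the log2 difference was -0.30 (SE 0.20, 95% interval -0.79 to 0.19; limma adjusted p = 0.9997), and a difference was not detectable at this depth. Its size depended on the scale, at -1.08 with a pseudocount of 0.1 and -1.31 with voom, and it was -0.08 without WT replicate 1. The Stfa2 and Stfa2l1 copies, which encode the same loop, thus differed in level in every library.

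Because reads can move between copies, the 4 stefin A members were also summed. The sums were 34.1, 15.8 and 12.3 FPKM in Aim2 KO, against 30.8, 16.7 and 19.6 FPKM in WT, and the groups overlapped. Summing thus left a 2.78-fold range between the libraries. The sum leaves out BC100530, BC117090, Gm4758 and Gm49652, which share stretches with Stfa1 or Stfa2. Reads exchanged with those genes are therefore not covered by it. In this bulk tissue, fewer cells of a kind and less RNA per cell cannot be told apart.

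Cstb encodes stefin B, the widely expressed intracellular inhibitor. It was at 337, 195 and 200 FPKM in Aim2 KO, against 228, 180 and 200 FPKM in WT. Aim2 KO replicate 1 stood above the other 5 libraries, which lay close together. The means were 244 ± 80.8 FPKM in Aim2 KO and 203 ± 24.2 FPKM in WT (SD, n = 3 each), and the log2 difference was 0.23 (SE 0.23, 95% interval -0.30 to 0.75; limma adjusted p = 0.9998). It was -0.03 without Aim2 KO replicate 1 and -0.0095 with array quality weights, against 0.68 with the suprabasal covariate, under which Cstb was called.

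Cst3 encodes cystatin C, the main secreted cysteine protease inhibitor of body fluids. It was the most abundant member and the steadiest. It was at 411, 435 and 420 FPKM in Aim2 KO, against 435, 421 and 365 FPKM in WT. The means were 422 ± 12.1 FPKM in Aim2 KO and 407 ± 37.0 FPKM in WT (SD, n = 3 each), and the log2 difference was 0.06 (SE 0.14, 95% interval -0.26 to 0.37; limma adjusted p = 0.9998). Without WT replicate 3, the lowest library, it was -0.02.

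Cst6 encodes cystatin M/E, the secreted inhibitor that works in cornifying epithelium. It was at 33.8, 28.3 and 25.7 FPKM in Aim2 KO, against 34.6, 25.7 and 24.9 FPKM in WT. The 2 groups covered the same range, with replicate 1 highest in each. The means were 29.3 ± 4.15 FPKM in Aim2 KO and 28.4 ± 5.36 FPKM in WT (SD, n = 3 each), and the log2 difference was 0.05 (SE 0.16, 95% interval -0.32 to 0.42; limma adjusted p = 0.9998). The sign turned to negative on leaving out Aim2 KO replicate 1 (-0.06), WT replicate 2 (-0.01) or WT replicate 3 (-0.03).

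**Figure D2:**
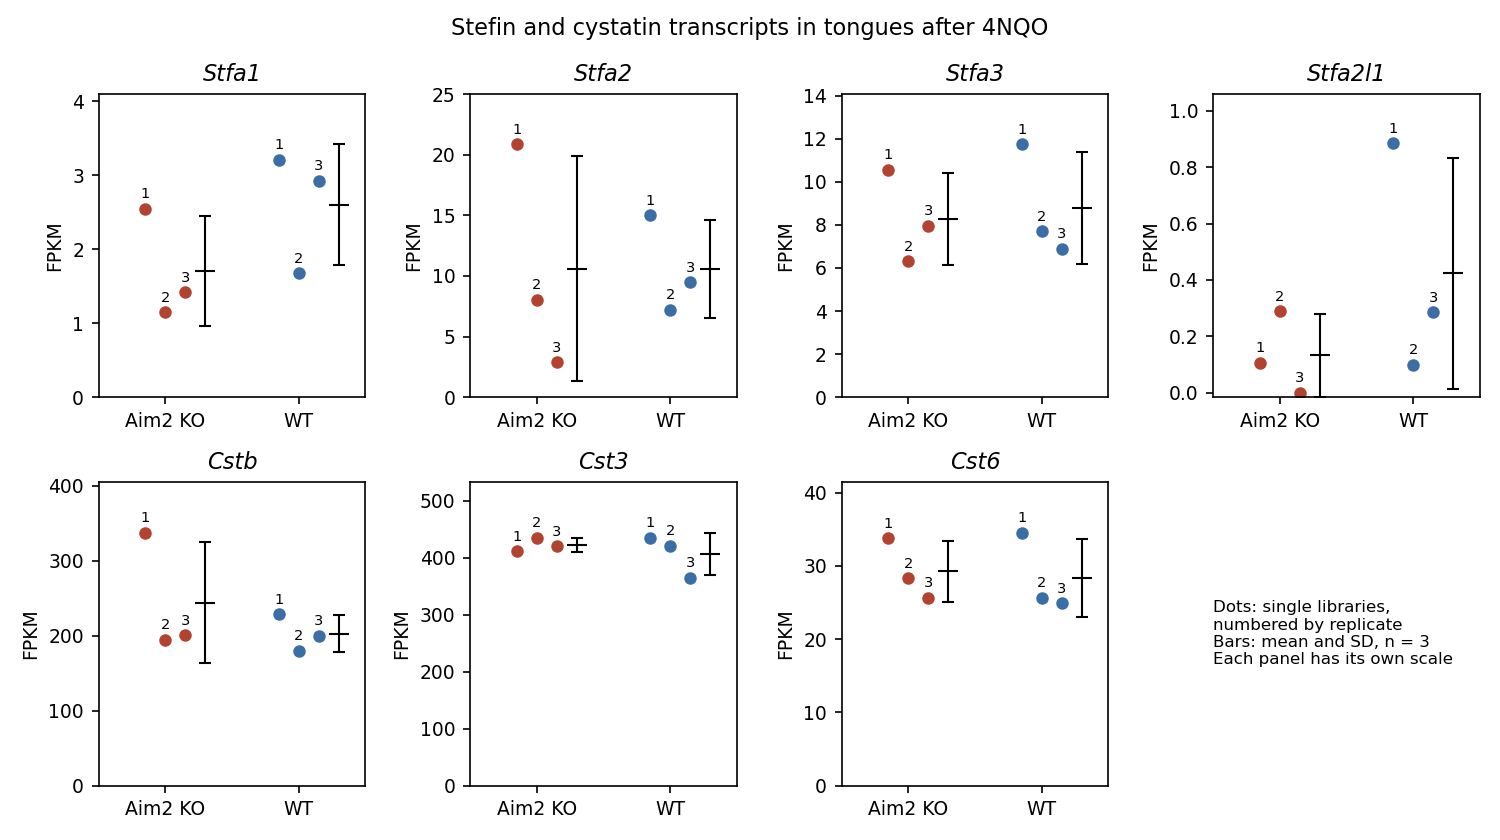
FPKM of the 7 members in single libraries, Aim2 KO left and WT right, with dots numbered by replicate and bars for the mean and SD of 3 libraries. The panels have separate scales; the groups overlap for every member, and Stfa2 shows both the highest (20.9 FPKM) and the lowest (2.91 FPKM) value in Aim2 KO.

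By mean level over the 6 libraries the members ran from Cst3 (414 FPKM) through Cstb (223 FPKM), Cst6 (28.8 FPKM), Stfa2 (10.6 FPKM), Stfa3 (8.53 FPKM) and Stfa1 (2.15 FPKM) to Stfa2l1 (0.278 FPKM). FPKM divides by the annotated gene length, so this order depends on those lengths. Cst6 had 2229 to 3356 reads over 3951 bases, and Cstb had 2619 to 4554 reads over 599 bases. The ranges of neighbours in this order did not overlap, except for Stfa2 and Stfa3, which ran over 2.91 to 20.9 FPKM and 6.31 to 11.8 FPKM. Cst3 and Cstb together made up most of the summed level, with 60.2% and 32.5% of it.

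The variation between libraries was measured as the SD of log2(FPKM + 1) over the 6 libraries, which had a median of 0.168 over all genes tested. It was 0.858 for Stfa2, more than for 99.5% of the genes tested, 0.400 for Stfa1, 0.326 for Cstb, 0.314 for Stfa3 and 0.203 for Cst6. For Cst3 it was 0.0939, less than for most genes, with 12.4% of the genes tested below it.

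The stefin A relatives of the same cluster, of which 7 were listed above 0 in some library, are described next. Csta1 was the most abundant of them. It was at 65.4, 36.8 and 29.0 FPKM in Aim2 KO, against 58.7, 37.9 and 45.7 FPKM in WT (log2 difference -0.17, SE 0.29, limma adjusted p = 0.9998). Again the highest and the lowest library were both Aim2 KO.

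Gm5416 (Csta3 in RefSeq) was the most variable of the cluster, with an SD of 1.01. It was at 19.8, 2.99 and 2.94 FPKM in Aim2 KO, against 11.3, 3.08 and 7.24 FPKM in WT, a log2 difference of -0.11. BC100530 (Cstdc5 in RefSeq) was at 3.30, 1.36 and 1.03 FPKM in Aim2 KO, against 3.81, 2.40 and 3.44 FPKM in WT. Its log2 difference of -0.61 was the most negative of the cluster, and it was not called (unadjusted p = 0.0681, limma adjusted p = 0.9998). BC117090 (Cstdc6) was at 4.47, 2.48 and 1.65 FPKM in Aim2 KO, against 1.89, 1.38 and 2.34 FPKM in WT, with a log2 difference of 0.38. BC100530 and BC117090 are 95.2% identical in coding sequence and share stretches with Stfa1. Both differences varied in size with the fit, and that of BC100530 was negative in every one but the fit with the suprabasal covariate. That of BC117090 was 0.09 without Aim2 KO replicate 1 and 0.0093 with array quality weights, that of BC100530 ran over -0.93 to -0.39 on leaving out 1 library, and with the suprabasal covariate they were 0.89 for BC117090, which was called (limma adjusted p = 0.0493), and 0.0015 for BC100530.

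2010005H15Rik (Csta2) was at 1.53, 0.689 and 0.499 FPKM in Aim2 KO, against 0.955, 0.774 and 2.04 FPKM in WT. Gm5483 (Cstdc4) had 4, 0 and 0 reads in Aim2 KO and 0, 1 and 0 reads in WT, and Gm4758 had 1 read, in WT replicate 2. Of the 5 relatives that passed the filter, 0 were called and 0 had an unadjusted p under 0.05; 1 log2 difference was positive and 4 were negative, with a median of -0.17 against 0.02 over all genes tested. Summed over the 4 stefin A members and the relatives, the level was 129, 60.1 and 47.4 FPKM in Aim2 KO, against 108, 62.4 and 80.4 FPKM in WT.

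The genes whose profile lay closest to that of Stfa2 were sought among all genes tested, by the root mean square (RMS) of the differences between centred log2(FPKM + 1) values over the 6 libraries. The nearest was Sprr2j-ps at 0.149, a pseudogene copy of the small proline-rich family. It was at 127, 42.2 and 22.8 FPKM in Aim2 KO, against 96.5, 49.6 and 69.2 FPKM in WT. Sprr2h, a small proline-rich protein gene of that family of cornified envelope precursors, came next at 0.174, with 260, 86.6 and 51.5 FPKM in Aim2 KO and 207, 106 and 145 FPKM in WT. Tmprss11g, a membrane serine protease gene, followed at 0.207, with 17.0, 6.84 and 3.74 FPKM in Aim2 KO and 13.3, 6.73 and 11.0 FPKM in WT. All 3 were highest in Aim2 KO replicate 1 and lowest in Aim2 KO replicate 3, a likeness to Stfa2 that follows from how they were chosen. Within the cluster the closest were Csta1 (0.410) and Gm5416 (0.447), and the other members lay at 0.597 to 0.792.

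**Figure D3:**
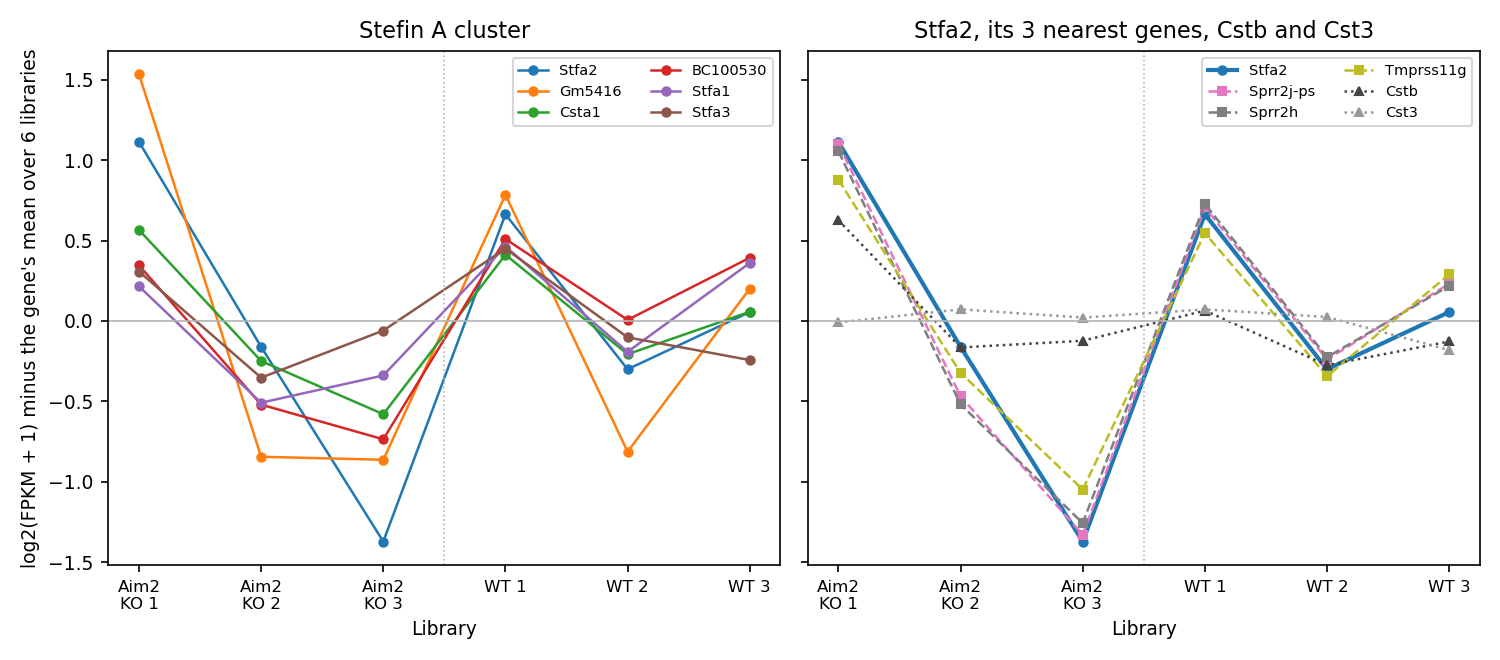
Centred log2(FPKM + 1) in each library, Aim2 KO libraries left of WT libraries, for 6 genes of the stefin A cluster (left panel) and for Stfa2 with its 3 nearest genes and with Cstb and Cst3 (right panel). Stfa2, Csta1 and Gm5416 are highest in Aim2 KO replicate 1 and lowest in Aim2 KO replicate 3, Sprr2j-ps, Sprr2h and Tmprss11g run alongside Stfa2, and Cst3 stays near 0.

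Several cell type markers moved with this spread. The sum of 13 neutrophil markers was 6878, 1161 and 819 FPKM in Aim2 KO, against 3546, 2357 and 2408 FPKM in WT, highest and lowest in the same libraries as Stfa2. S100a8 and S100a9, which keratinocytes also express, made up nearly all of it, at 3040 and 3745 FPKM in Aim2 KO replicate 1. The granule and surface genes Ly6g, Mpo, Elane, Ngp, Camp and Mmp8 were listed at 0 in Aim2 KO replicate 1. Outside Aim2 KO replicate 2 each had 0 to 7 reads in a library, and Elane, Ngp, Camp and Mmp8 were also at 0 in WT replicate 1. Values this near 0 cannot rank the libraries. Others of the list were not low in Aim2 KO replicate 1. Lcn2, which epithelium also expresses, was at 47.8, 9.52 and 5.40 FPKM in Aim2 KO, against 16.2, 9.95 and 16.6 FPKM in WT, and Cxcr2 was at 0.714, 0.565 and 0.389 FPKM in Aim2 KO, against 0.521, 0.514 and 0.608 FPKM in WT, both highest in Aim2 KO replicate 1. Ltf (43.4 FPKM), Retnlg (0.511 FPKM) and Csf3r (0.319 FPKM) were each second highest in that library. Ngp was above 0 only in Aim2 KO replicate 2, at 4.11 FPKM. The part of neutrophils in the stefin A levels was not tested. Macrophage markers, 11 genes of which none was at 0 throughout, summed to 67.5 to 169 FPKM in Aim2 KO and 74.7 to 92.3 FPKM in WT, lowest in Aim2 KO replicate 1.

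Basal keratinocyte markers summed to 11106, 5473 and 7257 FPKM in Aim2 KO, against 8058, 6544 and 8121 FPKM in WT. Set against 1000 FPKM of these markers, the summed stefin A members were at 3.07, 2.89 and 1.69 in Aim2 KO and 3.83, 2.55 and 2.41 in WT. Set against 1000 FPKM of suprabasal markers they were at 1.19, 0.581 and 0.438 in Aim2 KO and 0.979, 0.606 and 0.627 in WT. The highest library was 2.78 times the lowest for the plain sum, 2.26 times per basal marker level and 2.71 times per suprabasal marker level. The suprabasal sum was mostly Krt13 (mean 15408 FPKM) and Krt4 (mean 5649 FPKM), and ran only from 27197 to 31508 FPKM. Dividing by it could therefore change the range little, whatever other genes of that list did. The part of cell composition in the spread was not tested.

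Of the remaining cystatin superfamily, 13 of 15 listed genes were in the table and 7 were above 0 in some library. Cst7, cystatin F of immune cells, was at 1.17, 0.243 and 0.369 FPKM in Aim2 KO, against 0.124, 0.167 and 0.440 FPKM in WT, and lay under the filter. The 2 that passed it, Fetub and Ahsg, were not called, and both log2 differences were negative. Fetub was abundant, at 239, 268 and 220 FPKM in Aim2 KO, against 335, 248 and 244 FPKM in WT. Ahsg averaged 1.14 FPKM over the 6 libraries.

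The target proteases were examined beside their inhibitors. Of 11 cysteine cathepsins and legumain, 10 passed the filter and 0 were called; 3 of the 10, Ctss, Ctsc and Ctsh, had an unadjusted p under 0.05 and every Aim2 KO value above every WT value, where 4.98% of all genes tested had such separate groups. Of the 10 log2 differences 8 were positive and 2 negative, with a median of 0.09 against 0.02 over all genes tested. Ctss, cathepsin S of antigen-presenting cells, was at 18.7, 25.3 and 39.2 FPKM in Aim2 KO, against 11.0, 13.3 and 12.9 FPKM in WT. The means were 27.7 ± 10.5 FPKM in Aim2 KO and 12.4 ± 1.24 FPKM in WT (SD, n = 3 each), and the log2 difference was 1.04 (SE 0.24, 95% interval 0.48 to 1.60; unadjusted p = 0.00276, limma adjusted p = 0.985). With array quality weights the difference was 1.48 and was called (limma adjusted p = 0.0183). Of the 8 macrophage markers tested, 7 had positive log2 differences, with a median of 0.39, and 1, Cd68, had separate groups. The sum of all 11 listed markers was 67.5, 152 and 169 FPKM in Aim2 KO, against 74.7, 92.3 and 91.2 FPKM in WT. This sum, mostly Lyz2, C1qa, C1qb and C1qc, lay below every WT library in Aim2 KO replicate 1. It lay above every WT library in replicates 2 and 3. Cd68 and Fcgr1, the latter under the filter, lay above every WT library in each Aim2 KO library, and the other listed markers overlapped. Ctss, too, lay above every WT library in each Aim2 KO library. The part of macrophage content in the Ctss difference was not tested.

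Ctsc, cathepsin C (dipeptidyl peptidase I), was at 30.9, 24.6 and 26.1 FPKM in Aim2 KO, against 20.8, 19.7 and 24.5 FPKM in WT (log2 difference 0.31, unadjusted p = 0.0415, limma adjusted p = 0.9998). Ctsh, the aminopeptidase cathepsin H, was at 13.3, 11.8 and 13.5 FPKM in Aim2 KO, against 10.6, 9.19 and 11.6 FPKM in WT (log2 difference 0.28, unadjusted p = 0.0467, limma adjusted p = 0.9998). Neither passed the adjusted threshold, and in both the gap between the groups was narrow.

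The lysosomal endopeptidases that the epithelium and stroma share overlapped between the genotypes. Ctsb, cathepsin B, was at 77.6, 79.9 and 72.9 FPKM in Aim2 KO, against 76.5, 70.4 and 77.0 FPKM in WT. Ctsl, cathepsin L, was at 63.4, 78.3 and 66.6 FPKM in Aim2 KO, against 79.5, 71.0 and 76.0 FPKM in WT. Lgmn, legumain, was at 16.2, 29.7 and 30.2 FPKM in Aim2 KO, against 21.0, 27.6 and 23.9 FPKM in WT. Their log2 differences were 0.04 for Ctsb, -0.12 for Ctsl and 0.02 for Lgmn, and each 95% interval held 0.

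Ctsk, cathepsin K, was at 0.838, 5.86 and 3.78 FPKM in Aim2 KO, against 1.81, 3.81 and 3.22 FPKM in WT. Ctsz, cathepsin Z, was at 15.4, 21.9 and 19.4 FPKM in Aim2 KO, against 14.4, 19.5 and 16.2 FPKM in WT. Ctsk, Lgmn, Ctsl, Ctsf and Ctso were lowest in Aim2 KO replicate 1, the library with the most Stfa2, Csta1 and Cstb. Ctsc was highest in that library, and the other proteases tested were neither highest nor lowest in it. The listed fibroblast markers were lowest in Aim2 KO replicate 1 too, except Fbln1, which was second highest there at 8.10 FPKM. Their sum there was 123 FPKM, of which Dcn made up 104 FPKM. It was 261 and 280 FPKM in the other Aim2 KO libraries and 158 to 195 FPKM in WT. The part of fibroblasts in these levels was not tested.

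The summed FPKM of the members and stefin A relatives was 3.74, 2.46 and 2.44 times that of the cysteine proteases in Aim2 KO, against 3.24, 2.76 and 2.61 times in WT. The means were 2.88 ± 0.743 in Aim2 KO and 2.87 ± 0.331 in WT (SD, n = 3 each), a difference far smaller than the spread. A ratio of transcripts says nothing of the amount of free inhibitor protein.

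**Figure D4:**
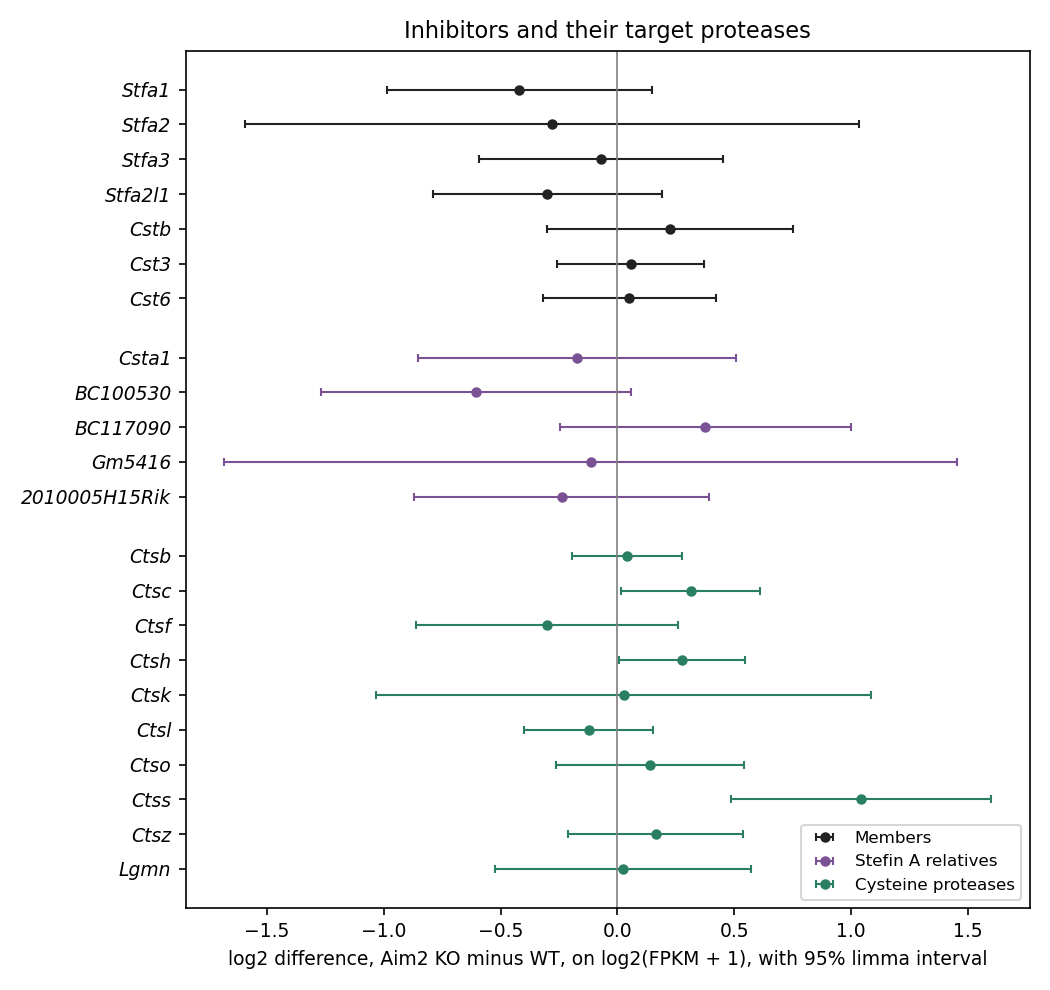
Log2 differences, Aim2 KO minus WT, on log2(FPKM + 1) with 95% limma intervals for the members, the stefin A relatives and the cysteine proteases that passed the filter, and for Stfa2l1 from the fit without it. The interval of every member holds 0, the widest among the members is that of Stfa2 (-1.59 to 1.04), and Ctss lies at 1.04.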

How the data were processed

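The labels' protocols state that tongue RNA was extracted with Qiagen RNAeasy Plus kits and that a company built the libraries. The deposited table gives FPKM per gene and library, with replicates not pooled. No source used here names the aligner, the counter, the build or the annotation. The deposited FPKM values times gene length are whole multiples of 1 step per library for 100% of values, within 0.01 of a read, which gave the read totals. Coordinates were read as GRCm38.

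Genotype was the only term of a two-sided limma test (version 3.58.1, R 4.3.3) on log2(FPKM + 1) with a trend of variance on intensity, over the 12144 genes that averaged 1 FPKM or more, with Benjamini-Hochberg adjustment. The log2 scale understates changes of low genes. The fit was tested on simulated data. Replicates 1 to 3 were each numbered alike in both genotypes; deviations of same-numbered libraries correlated at 0.351, 0.458 and 0.0302. The members and gene lists were chosen with earlier results of these data known.

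Named were all members, the stefin A relatives above 0, Cst7, 8 of the proteases whatever their values, and, for a member with an SD of at least 0.5, its 3 nearest genes, clone and predicted names left out. Fetub, Ahsg, Aim2, Ctsf, Ctso and the cell type markers fall outside this rule and were named after their values were seen. Alternatives were other pseudocounts, filters and scalings, other limma settings, voom on recovered reads, covariates, a replicate block and leaving out each library. Intervals on reads cover counting error only.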

Additional observations from a re-analysis of the deposited data

How the results depend on the processing

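Of the log2 differences (Aim2 KO minus WT), those of the 7 members kept their sign under other pseudocounts, filters and scalings, with voom, without a trend and with robust moderation. With array quality weights Cstb was -0.0095, Cst6 -0.14 and Ctsb -0.013; with the muscle covariate Cst6 was -0.019. With a suprabasal keratinocyte covariate, chosen after seeing the data, Stfa1 was 0.036, Stfa2 0.92, Stfa3 0.27, Csta1 0.46, BC100530 0.0015, Gm5416 1.42 (adjusted p = 0.0194), 2010005H15Rik 0.16, Ctsk -0.92, Ctsz -0.12 and Lgmn -0.48, and Cstb passed the threshold at 0.68 (adjusted p = 0.0374), as did BC117090 at 0.89 (adjusted p = 0.0493). Of the 3 Aim2 KO libraries, 2 lay below every WT library in that covariate. Ctsk was -0.064 and -0.0081 with pseudocounts of 0.1 and 0.5, -0.0098 with median-of-ratios scaling and -0.058 with voom, and Lgmn was -0.012 with that scaling. Leaving out 1 library gave -0.63 to -0.27 for Stfa1, -0.91 to 0.34 for Stfa2, -0.24 to 0.14 for Stfa3, -0.47 to -0.08 for Stfa2l1, -0.031 to 0.36 for Cstb, -0.020 to 0.11 for Cst3, -0.055 to 0.20 for Cst6, -0.50 to 0.071 for Csta1, -0.93 to -0.39 for BC100530, 0.093 to 0.62 for BC117090, -0.91 to 0.29 for Gm5416, -0.00020 to 0.078 for Ctsb, -0.38 to 0.57 for Ctsk and -0.12 to 0.31 for Lgmn.

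Genes called numbered 1 in the fit as reported, 0 with a filter at 0.1 FPKM, with no filter and after rescaling to TPM, 68 with array quality weights, 13 with the muscle covariate, 367 with the suprabasal covariate and 0 to 14 on leaving out 1 library (14 without Aim2 KO replicate 1). Array quality weights called 1 protease, Ctss. The cause was not tested. The replicate numbers were not taken to pair the libraries, since the correlation at number 3 was 0.0302 and Aim2 KO replicate 3 correlated best with WT replicate 2 (0.213); with the replicate block 0 genes were called. Depth limits Stfa2l1 (0 to 9 reads) and Stfa1 (12 to 33 reads).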
